A study of Mus musculus with 6 samples.

Results

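Interleukins and their receptors were followed in the luminal layer of the mouse uterus and in the blastocysts flushed from it, on the evening of day 4 of pregnancy. Members were the rows of the count tables whose gene name starts with Il and a digit, without the genes of the gp130 branch (Il6st, Il6ra, Il11 and the Il11ra rows). This left 78 of the 23420 genes in each table, from 83 names that match the pattern. Of the 78, 38 encode ligands and 37 receptor chains, and the others are the binding protein Il18bp and the rows Il4i1 and Il8.

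The study deleted Lif, the gp130 cytokine that uterine glands release before implantation, from the uterine epithelium and asked what the epithelium and the blastocyst lose without it. Control females were Lif-floxed/floxed and received PBS, eKO females were Lif-floxed/floxed Ltf-Cre/+ and received PBS, and the third group was eKO females given recombinant Lif (rLif). The Cre driver, Ltf, is active in the epithelium of the adult uterus, so the stroma keeps its Lif. Each treated female had 20 µg of rLif by injection in the morning (10 am) and again in the evening (6 pm), and tissue was taken at 8 pm. Blastocysts were labelled Lif-floxed/+, so the embryos themselves carried an intact allele in every group. The age of the females is not given in the sources used here. Luminal epithelium was cut out by laser microdissection, and each of the 6 libraries was made from pooled RNA, 1 library for each group and tissue, so differences between libraries have no replicate check and no p-value was computed.

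Read depth was 23850565 to 28460465 counts in the luminal libraries and 18996158 to 19638852 in the blastocyst libraries. For Lif itself the luminal libraries gave 0 counts under the control label, 28 under the eKO label and 0 under the label eKO with rLif. In the libraries with none, 3 counts would be 0.119 and 0.115 CPM (counts scaled to a common library size by TMM). The order of these counts goes against the labels. The count covers the whole gene, of which exon 3 and only a part of exon 4 are floxed, and Lif is made mainly by the glands, so it does not test the deletion. Control, eKO and rLif stand below, for the luminal layer, for the library labelled so and not for a genotype seen in its counts. Blastocysts had 1447, 1736 and 1250 Lif counts in the same order, which their genotype allows. All 10 luminal epithelium markers had counts in each luminal library. Their summed level was 5214 CPM under the control label, 7121 under eKO and 5227 with rLif. Of 8 inner cell mass markers 5 or 6 were at 0 in the luminal libraries. In blastocysts those 8 markers all had counts, with 1617 to 1909 CPM, and so did 8 trophectoderm markers, with 7013 to 7482 CPM. The epithelial markers are not particular to the uterus, since they summed to 9119.6 to 9800.2 CPM in blastocysts. Stromal markers summed to 809.5 to 1223 CPM in the luminal libraries.

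Interleukins are secreted signals first named for talk between leukocytes, and epithelia both release and sense many of them. The IL-1 family acts through paired receptor chains, adaptors of the MyD88 and IRAK type and NF-κB, and its members IL-1 alpha and IL-33 are stored in epithelial cells as alarm signals. Most other interleukins signal through Janus kinases and STAT factors, and the IL-17 family uses its own adaptor, Act1. In the uterus this system is known for the leukocyte traffic around mating and implantation and for talk between embryo and epithelium.

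The promoters of 5 luminal members that were lower in the library labelled eKO, and of Il6, which was highest there, are shown so that the letters upstream of each gene can be read beside its counts. They are the 250 bases before the RefSeq start on GRCm38.p6, read 5′ to 3′ on the strand of the gene, for Il1a (chr2:129309973-129310222, minus strand), Il1f8 (chr2:24152922-24153171, plus), Il1f9 (chr2:24186226-24186475, plus), Il20ra (chr10:19712337-19712586, plus), Il13ra1 (chrX:36111858-36112107, plus) and Il6 (chr5:30012864-30013113, plus). Capitals mark matches to TTCNNNGAA or TTCNNNNGAA, the letters that STAT factors bind, and to GGGNNNTTCC, a form of the NF-κB site.
Il1a: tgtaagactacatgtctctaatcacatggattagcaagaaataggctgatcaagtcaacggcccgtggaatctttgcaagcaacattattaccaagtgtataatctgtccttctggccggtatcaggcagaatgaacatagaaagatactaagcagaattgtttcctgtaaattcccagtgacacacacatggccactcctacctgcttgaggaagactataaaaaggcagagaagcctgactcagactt
Il1f8: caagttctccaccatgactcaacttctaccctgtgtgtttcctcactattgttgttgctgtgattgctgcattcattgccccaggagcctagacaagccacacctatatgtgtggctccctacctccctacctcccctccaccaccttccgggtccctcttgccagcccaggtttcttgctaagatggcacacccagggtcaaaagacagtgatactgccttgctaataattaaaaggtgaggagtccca
Il1f9: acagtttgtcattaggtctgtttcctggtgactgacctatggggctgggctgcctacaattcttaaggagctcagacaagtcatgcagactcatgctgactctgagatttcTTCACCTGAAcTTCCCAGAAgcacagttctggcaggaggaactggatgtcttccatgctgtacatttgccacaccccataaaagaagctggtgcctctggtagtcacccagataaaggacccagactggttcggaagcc
Il20ra: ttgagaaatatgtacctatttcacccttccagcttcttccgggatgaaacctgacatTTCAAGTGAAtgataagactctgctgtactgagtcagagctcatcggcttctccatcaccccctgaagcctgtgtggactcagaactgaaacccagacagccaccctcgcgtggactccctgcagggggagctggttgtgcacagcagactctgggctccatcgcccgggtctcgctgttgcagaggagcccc
Il13ra1: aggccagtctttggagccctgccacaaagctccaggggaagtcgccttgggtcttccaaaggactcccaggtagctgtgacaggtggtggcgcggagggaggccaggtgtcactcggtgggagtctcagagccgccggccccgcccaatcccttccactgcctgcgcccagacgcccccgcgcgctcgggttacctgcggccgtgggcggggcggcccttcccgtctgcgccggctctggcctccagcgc
Il6: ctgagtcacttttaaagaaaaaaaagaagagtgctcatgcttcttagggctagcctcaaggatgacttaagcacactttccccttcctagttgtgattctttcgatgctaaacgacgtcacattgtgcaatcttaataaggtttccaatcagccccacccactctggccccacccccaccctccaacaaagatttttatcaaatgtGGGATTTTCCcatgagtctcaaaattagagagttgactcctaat

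The Il1f9 window held 2 STAT-type matches, TTCACCTGAA from 139 to 130 and TTCCCAGAA from 128 to 120 bases before the start. Il20ra held TTCAAGTGAA from 193 to 184 bases before the start, and Il6 held GGGATTTTCC from 44 to 35 bases before it. The Il1a, Il1f8 and Il13ra1 windows held none of these letters. Il18bp and Il1f5, also lower in the library labelled eKO, have windows that are not shown. That of Il18bp held no match. For Il1f5 a window held none and another held TTCTGGGAA from 98 to 90 bases before its start. Of the Il1f8 and Il20ra windows, 11 and 17 bases lie in annotated exons of the gene itself. Both strands were searched in all 32851 RefSeq promoter windows of 300 bases (250 before and 50 after the start), of which TTCNNNGAA was found in 8.298%, TTCNNNNGAA in 6.953% and GGGNNNTTCC in 5.555%. Windows were found for 60 of the 78 members, 73 in all. The motifs were in 10, 16 and 12 of them, a share of 13.7%, 21.92% and 16.44%. These windows belong to 10, 13 and 10 members. They include Il4 and Il20, which had 0 counts in each luminal library. Whether the motifs go with the counts was not tested. A match describes letters and not a bound site.

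In the luminal layer 50 of the 78 members reached 10 counts summed over the 3 libraries and were compared, 13 had 1 to 9 counts and 15 had none. In blastocysts 41 passed, 16 had 1 to 9 counts and 21 had none. In both tissues 36 members passed, in the luminal layer alone 14, in blastocysts alone 5 and in neither 23. Summed over all members the luminal libraries held 1117 CPM in control, 803 in eKO and 1213 with rLif. Blastocyst libraries held 224, 225 and 222 CPM.

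Levels of different genes were compared as reads scaled by exon length in kilobases and by library size (RPKM, computed here from the counts). Il17rb, a receptor chain for IL-25 and IL-17B, was the highest member of the luminal layer at 144 RPKM in control, 142 in eKO and 132 with rLif, the order used from here on wherever 3 values stand together. Il1f8 (IL-36 beta) followed with 95.4, 27.7 and 196 RPKM, and Il17re, the IL-17C receptor chain, with 38.0, 31.4 and 17.5 RPKM. Il17rb thus kept nearly the same level in the 3 libraries, while Il1f8 was lowest in eKO and Il17re lowest with rLif. Il20ra had 37.1, 1.63 and 38.9 RPKM, Il13ra1 22.8, 4.61 and 37.5 RPKM and Il10rb 25.9, 17.4 and 27.8 RPKM. Il20rb, Il13ra2, Il17rc and Il15 complete the 10 highest by mean level. In blastocysts, whose table was scaled separately, the order was different, with Il6 first at 22.5, 22.5 and 34.3 RPKM and Il17re second at 14.3, 13.6 and 14.6 RPKM.

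**Figure D1:**
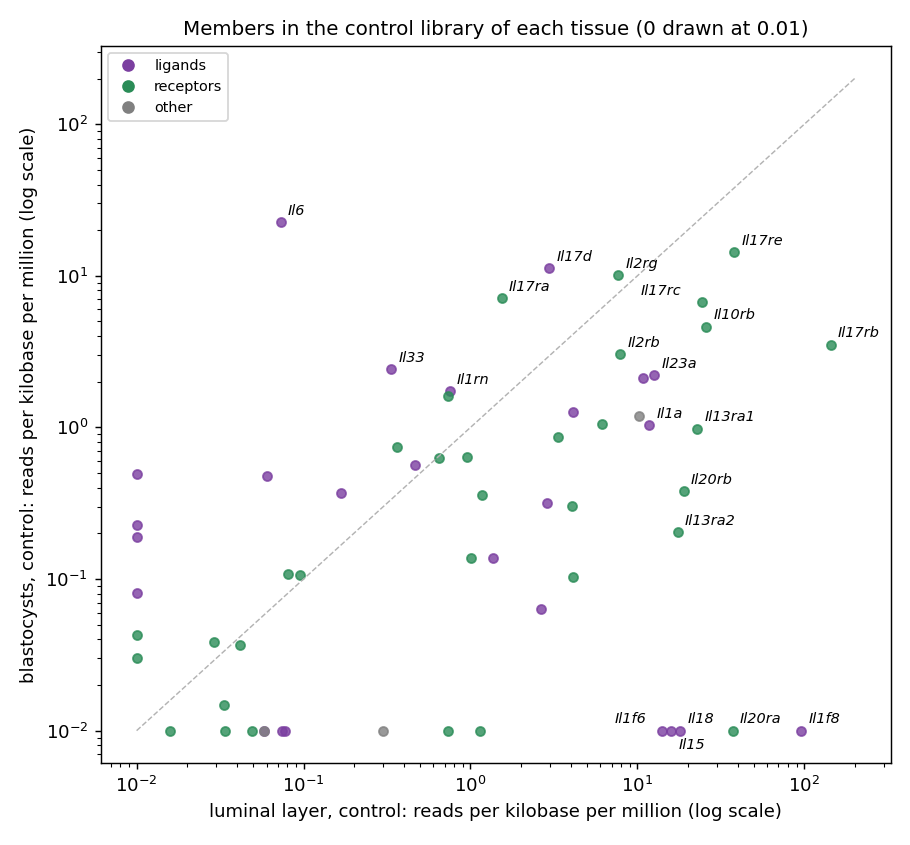
Level of each member in the control library of the luminal layer (x axis) and of the blastocysts (y axis), in RPKM on log axes, each point 1 gene read in at least 1 of the libraries, coloured as ligand, receptor or other, with 0 drawn at 0.01 and a dashed line at equal level. Il17rb at 144 and Il1f8 at 95.4 RPKM lie farthest to the right, Il1f8 on the floor because blastocysts had 0 counts, and Il6 lies highest at 22.5 RPKM in blastocysts.

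A member was called higher or lower when the exact 95% interval of its ratio between 2 libraries, which covers counting error only, lay wholly beyond 2-fold, and log2 ratios below are given with that interval. Between luminal eKO and control 15 members were called, 30% of those compared, beside 17.2% of all genes tested. Of the 15, 5 were higher in eKO, a direction called in 8.08% of all genes, and 10 were lower, as were 9.15% of all genes. Between rLif and eKO 16 were called (32%, beside 15.6% of all genes), 13 of them higher with rLif (7.88% of all genes) and 3 lower (7.77% of all genes). Between rLif and control 14 were called (28%, beside 9.16% of all genes), 7 of them higher with rLif (4.12% of all genes) and 7 lower (5.04% of all genes). The 3 comparisons share libraries, and 24 members (48% of the 50) were called in at least 1 of them, beside 26.6% of all genes tested. Median log2 ratios over the 50 members were -0.30, 0.17 and 0.01, and those over all genes tested were 0.00, -0.00 and 0.00. With the limit set at a log2 ratio of 0, 36, 37 and 32 members were called (72%, 74% and 64%), beside 74.7%, 71.4% and 66.2% of all genes, shares close to those of all genes. By edgeR's exact test at an assumed dispersion of 0.1 the counts were 9, 12 and 3 (18%, 24% and 6%), beside 7.96%, 7.07% and 2.18%. Of the calls described below it kept Il20ra, Il13ra1, Il34, Il1a, Il1f6, Il1f9, Il6, Il2 and Il2ra between eKO and control, and Il1f9, Il6 and Il23a between rLif and control. Between rLif and eKO it ended those of Il1f6, Il4ra, Il15 and Il31ra. Since samples are bulk tissue, fewer cells of a type and less RNA per cell cannot be told apart.

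**Figure D2:**
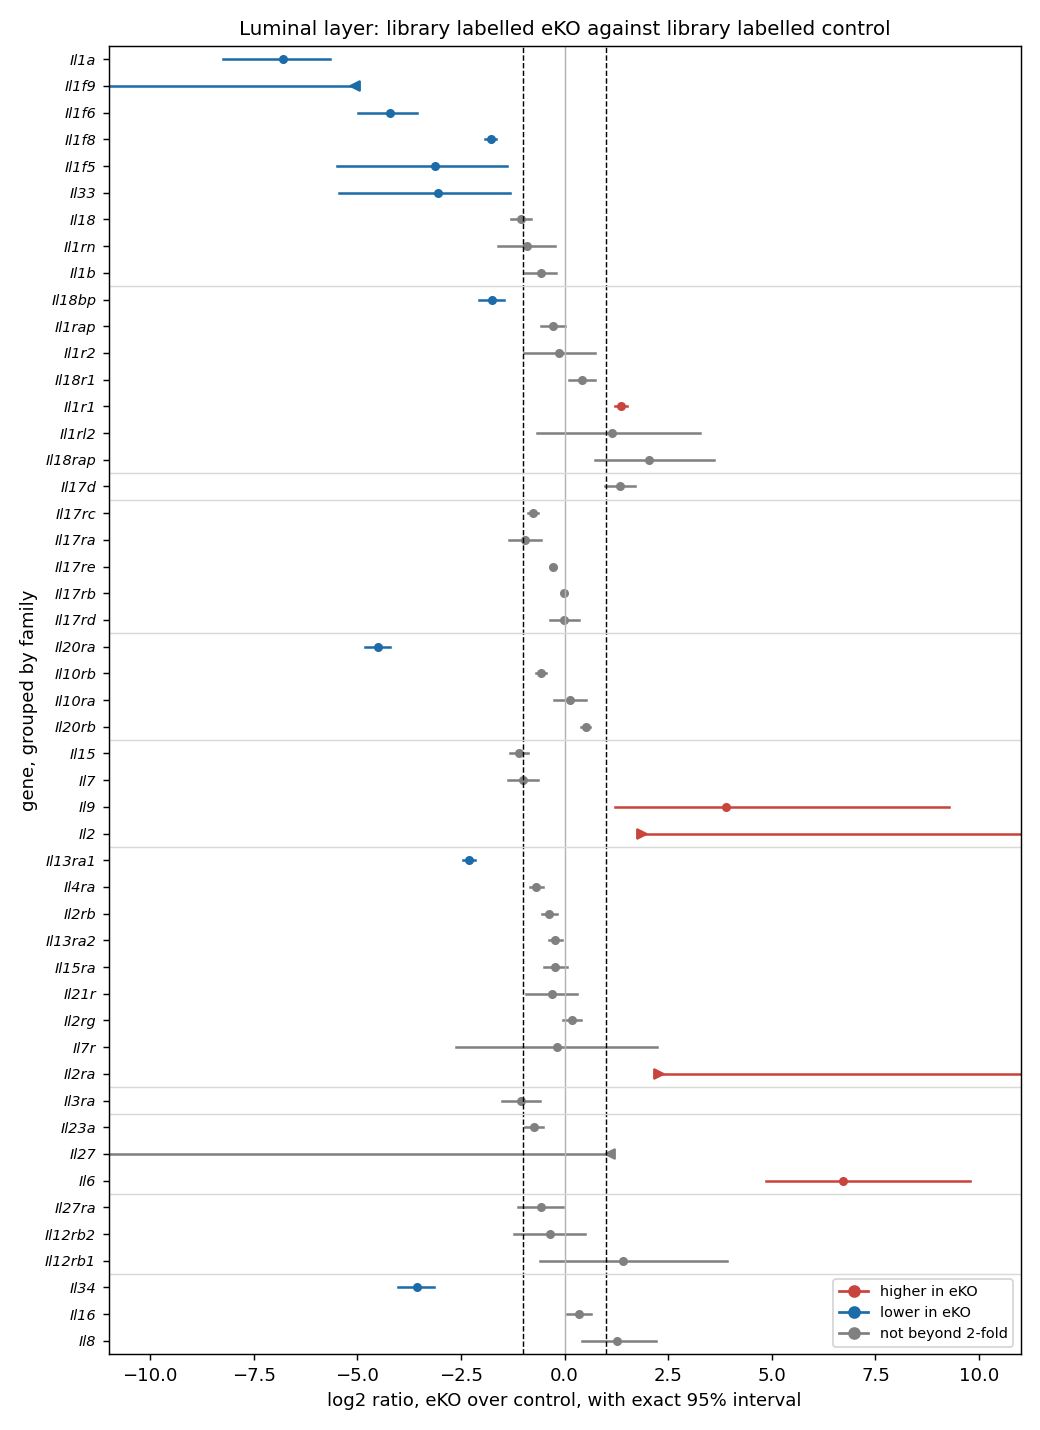
Log2 ratio of eKO over control, as the luminal libraries are labelled, for each member compared, grouped by family, with the exact 95% interval as a bar, dashed lines at 2-fold and a triangle where 1 library had 0 counts and the interval is open to 1 side; Il31ra, at 0 in both, is not drawn. The 10 members called lower (blue) include Il1a at -6.79, and the 5 called higher (red) include Il6 at 6.72.

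IL-1 family ligands made up 6 of the 10 members lower in eKO. Of the 10 ligands 9 were compared, and 6 of these were lower in eKO than in control and 0 higher, with a median log2 ratio of -3.06 over the 9. Among the 6, Il33 passed the filter through the control library, so its lower calls were built in, and the median is its own ratio. Between rLif and eKO, 6 ligands were called higher and 0 lower, with a median of 2.23, and against control 2 were higher and 2 lower with rLif. Summed over the family, levels were 140, 35.3 and 251 CPM. Markers of glandular epithelium, of which 4 of 6 had rows under their listed names, summed in the same order to 7.76, 5.22 and 18.8 CPM. Foxa2 was at 0 in eKO, and 3 of the 4 were called higher with rLif than in eKO. Cxcl15, a further gene of that list, stands under the name Il8. It did not run in that order, with 0.634, 1.53 and 1.84 CPM, and was not called. Endothelial markers had 48.2, 69.0 and 92.1 CPM, with 0 of 6 at 0. Of the 10 luminal epithelium markers, 2 were called higher and 2 lower in eKO than in control. Between rLif and eKO 2 of them were higher with rLif and 3 lower, and between rLif and control 0 were called. The part of all these markers in the results was not tested.

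Il1a encodes IL-1 alpha, an agonist kept in epithelial cells and freed on damage, and lies at chr2 from 129299610 to 129309972 on the minus strand (mm10), near its paralog Il1b. Il1a counts were 585, 6 and 984, so it was nearly absent in eKO and present in the other libraries. The log2 ratio was -6.79 [-8.25, -5.66] for eKO against control and 7.50 [6.37, 8.95] for eKO with rLif against eKO, and was 0.71 [0.56, 0.86] for eKO with rLif against control, which was not called. Its exons overlap those of Gm14023 on the opposite strand, which had 37, 19 and 24 counts. The strand setting of the counting is not given in the sources used here, so reads of that gene cannot be told apart from reads of Il1a.

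The IL-36 cytokines, epithelial agonists of the receptor Il1rl2, sit in a cluster of 6 IL-1 ligand genes within 198.32 kb of chr2 (24153172 to 24351491). Il1f8 (IL-36 beta) had 1902, 629 and 4029 counts, with log2 ratios of -1.78 [-1.91, -1.65] and 2.82 [2.70, 2.94] for the first 2 comparisons. Its ratio of 1.04 [0.96, 1.12] of rLif against control was not called. Il1f9 (IL-36 gamma) had 110, 0 and 672 counts, so its level in eKO was lower than in control by at least 41.7-fold, and with rLif it exceeded that of eKO by at least 247-fold. With rLif it also stood above control, at a log2 ratio of 2.57 [2.27, 2.87]. Il1f6 (IL-36 alpha) had 312, 19 and 81 counts, and its value with rLif lay between the others, with log2 ratios of -4.22 [-4.97, -3.56], 2.23 [1.50, 3.04] and -1.99 [-2.36, -1.63]. Il1f5, the antagonist of that receptor, had 23, 3 and 36 counts, with log2 ratios of -3.12 [-5.50, -1.40] and 3.73 [2.06, 6.07]. The agonists and the antagonist thus were all lower in eKO than in control. Il1rl2, the receptor they share, had 4, 10 and 24 counts and was not called. Its log2 ratio of 2.54 [1.00, 4.53] for rLif against control lay on the limit.

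Il1b, the inflammasome-processed IL-1 agonist, had 138, 105 and 434 counts, and was called higher with rLif in both comparisons, at log2 ratios of 2.19 [1.88, 2.51] against eKO and 1.61 [1.33, 1.90] against control. Il33, a nuclear alarm cytokine, had 22, 3 and 2 counts and like Il1f6 was lower than control in eKO and with rLif, at -3.06 [-5.44, -1.33] and -3.50 [-6.64, -1.48]. Il33 passed the filter through the control library, so these differences were built in. Il18 had 395, 218 and 257 counts and Il1rn, the secreted antagonist of the IL-1 receptor, 51, 31 and 30, and neither was called. Il18bp, the decoy that soaks up IL-18, had 360, 121 and 1051 counts and had the same calls as Il1f9, lower in eKO at -1.76 [-2.07, -1.46] and above control with rLif at 1.50 [1.33, 1.68].

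**Figure D3:**
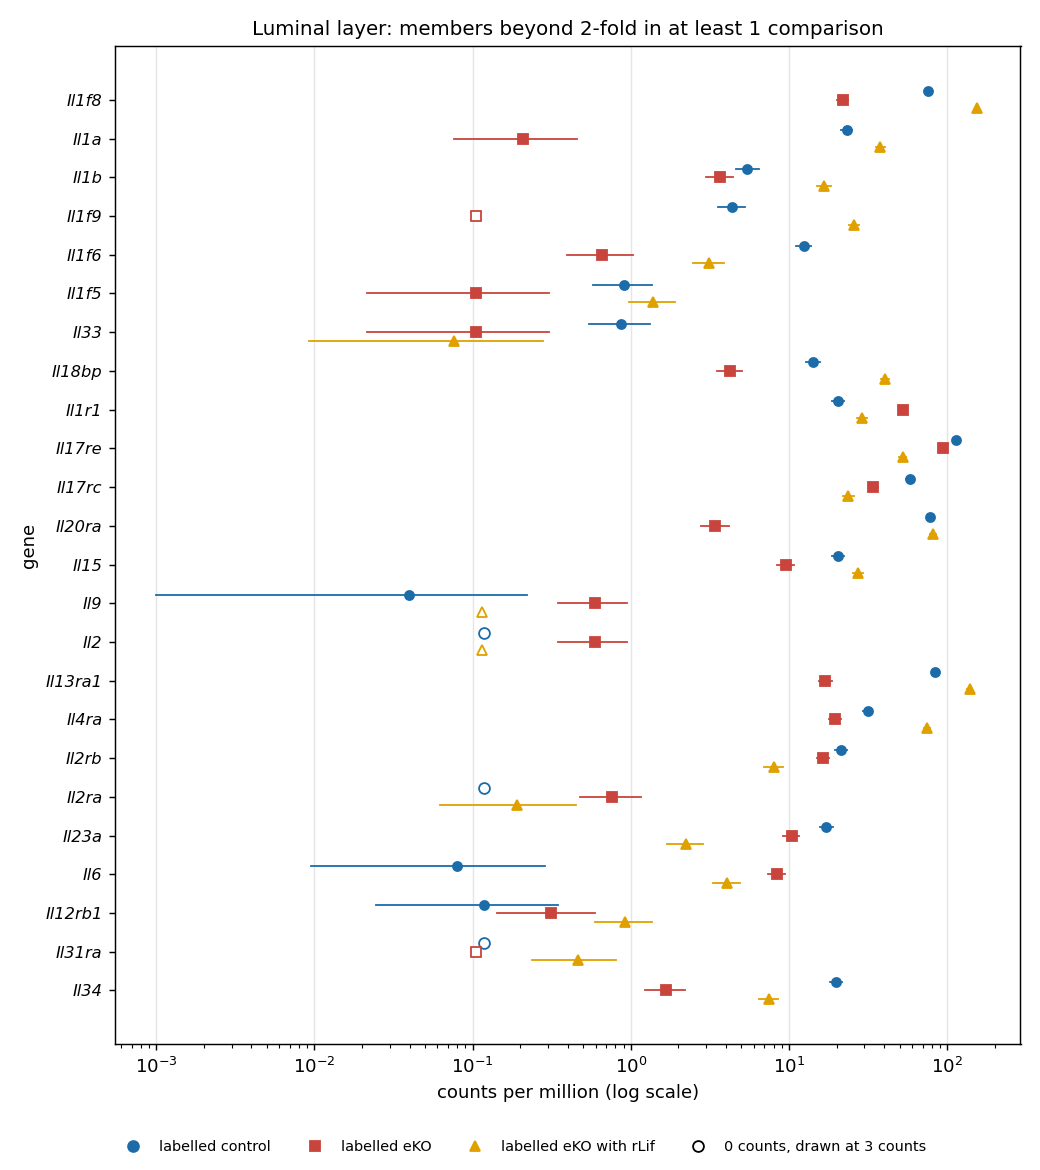
Level in CPM on a log axis of the 24 members called in at least 1 luminal comparison, each library a symbol by its label, with the exact 95% Poisson interval as a bar and open symbols at the level of 3 counts for libraries with 0. Il1a, Il1f8 and Il20ra have their lowest point in eKO, while Il6 is highest there at 8.36 CPM against 0.0792 in control.

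Of the IL-1 family receptor chains 6 were compared, and 1 of these was called, beside 26.6% of all genes called in at least 1 luminal comparison. Il1r1, the signalling receptor of IL-1 alpha and IL-1 beta, had 515, 1502 and 749 counts, and was higher in eKO than in control at 1.36 [1.21, 1.51]. Stromal markers were in the same order, at 809.5, 1223 and 853.6 CPM summed. Of these 10 markers 1 was called higher in eKO than in control and 0 lower. Their part in the result was not tested. Of the adaptors that carry the IL-1 signal, 11 genes were compared and 1 was called lower in eKO, a share near the 9.15% of all genes. It was Irak2, the kinase that sustains the response, with 1624, 450 and 417 counts, which was also lower with rLif than in control. Irak3, an inhibitor of that signal, had 48, 33 and 103 counts and was higher with rLif than in eKO. Myd88, the shared adaptor, had 15751, 26097 and 21779 counts and was not called. Of 8 genes for processing of IL-1 cytokines 7 were compared, and Nlrp1a, with 15, 1 and 4 counts, was lower in eKO while Casp4, an inflammatory caspase with 1407, 1076 and 2915 counts, was higher with rLif than in eKO. Nlrp1a passed the filter through the control library, so its difference was built in. Casp1 had 2449, 4108 and 2903 counts and Pycard 8374, 10501 and 17535, and neither was called.

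The 5 IL-17 receptor chains were all compared, 0 were called between eKO and control or between rLif and eKO, and 2 were lower with rLif than in control. Of all genes tested, 17.2% and 15.6% were called in the first 2 comparisons, and 5.04% were lower in the third. Il17rb, which takes IL-25, had 7483, 8410 and 7106 counts, and its log2 ratios stayed between -0.12 and -0.02. Il17re and Il17rc, chains of the IL-17C and IL-17A receptors whose genes lie 703 bases apart on chr6, had 2873, 2699 and 1363 and 1464, 981 and 617 counts. Both were called lower with rLif than in control, at -1.12 [-1.21, -1.03] and -1.29 [-1.43, -1.15], and both calls end under the edgeR test. Smooth muscle markers were lower with rLif as well, at 70.4, 50.5 and 31.4 CPM, with 4 of 6 called lower than in control and 0 at 0 in any library, and their part in the result was not tested. Most ligands of the IL-17 family were near the limit of detection in the luminal layer. Il17a and Il17f had 0 counts in each of the 3 luminal libraries, Il17c had 1, 4 and 0, and Il25 had 0, 4 and 1. The exception in the family was Il17d, with 91, 261 and 220 counts. Its log2 ratio of 1.33 [0.98, 1.69] for eKO against control lay near the limit and was not called. In the IL-17 pathway list of 7 genes, Rela, the NF-κB subunit, was lower in eKO than in control, with 4267, 2029 and 3184 counts, and Nfkbiz, an NF-κB cofactor of IL-17 and IL-36 responses, was higher with rLif than in eKO, with 906, 568 and 1327 counts.

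Receptors for the IL-10 family included the largest drop of any receptor called lower in eKO. Il20ra, the chain that with Il20rb takes IL-19, IL-20 and IL-24, spans chr10 from 19712587 to 19760053 and had 1958, 98 and 2116 counts. In eKO it was 22.7-fold lower than in control, a log2 ratio of -4.51 [-4.81, -4.21], and with rLif it was higher than in eKO by a log2 ratio of 4.57 [4.28, 4.88]. Between rLif and control the log2 ratio was 0.07 [-0.02, 0.16], well inside the limits. Its partner Il20rb had 1186, 1919 and 875 counts and was not called. Among the 5 ligands of the family none reached 10 counts, Il20 and Il22 had 0 in each luminal library, and Il19 had 2, 0 and 4 counts. Il10rb, the shared second chain, had 1209, 923 and 1339 counts and was not called.

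Among receptors that use the common gamma chain and those of IL-4 and IL-13, Il13ra1, the chain for IL-13 that pairs with Il4ra, had 2118, 488 and 3602 counts (chrX, 36112139 to 36171261). Its log2 ratios were -2.30 [-2.45, -2.16] for eKO against control and 3.03 [2.89, 3.16] for eKO with rLif against eKO. Il4ra had 792, 561 and 1939 counts and was called higher with rLif in both comparisons, at 1.93 [1.79, 2.07] and 1.25 [1.13, 1.37]. The second of these calls ends when counts are scaled by library totals, at 1.07. The decoy receptor Il13ra2, at 676, 660 and 832 counts, was not called, and Il4 and Il13 themselves had 0 counts in each luminal library.

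The ligand Il15, which sustains uterine natural killer cells, had 517, 274 and 715 counts and was called higher with rLif than in eKO, at 1.53 [1.32, 1.73]. Its presenting chain Il15ra had 211, 206 and 262 counts and was not called. Il2rb, the shared chain of the IL-2 and IL-15 receptors, had 537, 473 and 209 counts and was lower with rLif than in control, at -1.41 [-1.64, -1.17]. Natural killer markers were also lowest with rLif. Ncr1 had 346, 450 and 222 counts and Klrb1c 214, 176 and 109. Over the immune marker list, 17 of 20 genes had rows, the summed level was 1109, 1054 and 1116 CPM, and 4, 3 and 4 of them were at 0, Cd3e having 28, 27 and 6 counts. Their part in the result was not tested. Il2 and Il9, both T cell growth factors, and Il2ra, the high-affinity chain for IL-2, were read at low counts and mostly in eKO. Il2 had 0, 17 and 0 counts, Il9 1, 17 and 0, and Il2ra 0, 22 and 5, and the excess of Il2ra in eKO over control was at least 6.45-fold. Il2 and Il9 were called higher in eKO than in control and lower with rLif than in eKO. These 3 genes passed the filter through the eKO library, so a difference was built in, and their calls end at a minimum of 50 counts.

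Il6 encodes the acute-phase cytokine and had the highest log2 ratio of eKO over control among the members with a count in each. Its counts were 2, 240 and 106, a 105-fold ratio of eKO to control at a log2 value of 6.72 [4.85, 9.77], with only 2 counts behind the control value. With rLif it was still called higher than control, at 5.68 [3.80, 8.75], and did not pass the limit against eKO, at -1.04 [-1.38, -0.70]. Il23a, a subunit of IL-23, went the other way after rLif, with 434, 298 and 58 counts and log2 ratios of -2.22 [-2.65, -1.81] against eKO and -2.95 [-3.37, -2.55] against control. Il12rb1 and Il31ra, receptor chains of the IL-12 and IL-31 type, were called on few counts, 3, 9 and 24 for Il12rb1 and 0, 0 and 12 for Il31ra. Il12rb1 was higher with rLif than in control at 2.96 [1.24, 5.33], and Il31ra was higher with rLif by at least 4.41-fold against eKO and at least 3.88-fold against control. Both passed the filter mainly through the library with rLif, and these calls, like those of Il33, end at a minimum of 50 counts.

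Il34, the second ligand of the Csf1 receptor, which keeps macrophages alive, had 502, 48 and 194 counts (chr8, 110741829 to 110805903). Its log2 ratios were -3.57 [-4.03, -3.14], 2.16 [1.69, 2.64] and -1.42 [-1.66, -1.17] for the 3 comparisons in the order above. Csf1, the first ligand of that receptor, had 1053, 29 and 311 counts and was called in the same directions in all 3 comparisons, while Csf1r itself had 233, 244 and 380 counts and was not called. Ptprz1, another receptor of IL-34, had 14, 162 and 61 counts and was called higher than control in both libraries of eKO females. Janus kinases, which many of these receptors use, moved apart: Jak2 had 1960, 7134 and 1874 counts and was called higher in eKO than in control and lower with rLif than in eKO, and Jak3 had 161, 57 and 209 and was called in the opposite directions.

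The other 26 luminal members compared were called in no comparison. Il7, a lymphocyte growth factor, had 179, 102 and 234 counts, and its log2 ratio of 1.34 [1.00, 1.69] for rLif against eKO lay on the limit. They include Il17rb, Il10rb, Il20rb, Il13ra2 and Il18, given above. Il16, a T cell attractant, had 171, 246 and 163 counts. Il2rg, the common gamma chain itself, had 311, 399 and 267 counts, Il1rap 205, 191 and 174, and Il18r1 138, 210 and 116. Lower values were read for others, with Il3ra at 117, 64 and 107 counts, Il27ra, whose exons overlap those of Palm3, at 68, 52 and 54 and Il21r at 48, 44 and 33. Il8, a row that RefSeq lists as the chemokine Cxcl15, had 16, 44 and 48 counts and was not called.

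In blastocysts, named by the group of the females they came from, 7 members were called between eKO and control (17.07% of those compared, beside 3.15% of all genes), 4 of them higher in eKO (1.29% of all genes) and 3 lower (1.86% of all genes). Between rLif and eKO 4 were called (9.756%, beside 3.75%), 1 higher with rLif (0.914% of all genes) and 3 lower (2.83% of all genes). Between rLif and control 7 were called (17.07%, beside 4.94%), 2 higher with rLif (0.948% of all genes) and 5 lower (3.99% of all genes). Median log2 ratios over the 41 members were 0.14, -0.16 and -0.03, and those over all genes tested -0.00, -0.01 and -0.01. In all 12 members (29.27% of the 41) were called in at least 1 comparison, beside 8.42% of all genes tested. The IL-1 family made up 8 of the 12, and 13 of the 41 compared. With the limit at a log2 ratio of 0, 19, 19 and 20 members were called (46.34%, 46.34% and 48.78%), beside 44.8%, 52.7% and 52.9% of all genes. By edgeR's exact test at an assumed dispersion of 0.1 the counts were 2, 1 and 1 (4.878%, 2.439% and 2.439%), beside 0.437%, 0.39% and 0.834%, and the calls it kept were Il1b and Il2rb between eKO and control, Il1b between rLif and eKO and Il2rb between rLif and control. With a minimum of 50 counts the 4 calls between rLif and eKO became 2, beside 2.63% of all genes.

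Il1b had 32, 222 and 12 counts, so it stood highest in blastocysts of eKO females. Log2 ratios were 2.76 [2.22, 3.34] between eKO and control and -4.20 [-5.18, -3.37] between rLif and eKO. Some macrophage and granulocyte genes were also highest in eKO. Lyz2 had 976, 2128 and 289 counts, Itgam 48, 101 and 33, Csf1r 31, 68 and 10 and S100a8 6, 33 and 7. Over the immune list the summed level was 81.8, 141 and 32.7 CPM, with 2, 2 and 3 of 17 genes at 0. In control and eKO that sum was mostly Lyz2. Of 15 immune genes compared, 1 was called higher in eKO than in control and 1 lower. Their part in the result was not tested. Il1rn, the antagonist of the same receptor, had 89, 321 and 192 counts and was higher in eKO at 1.81 [1.47, 2.17]. Il1f9 had 2, 32 and 22 counts and was higher in eKO at 3.96 [1.99, 7.07] and with rLif at 3.43 [1.41, 6.56], both against control. Il1a had 39, 38 and 9 counts and was lower with rLif than in control, at -2.14 [-3.37, -1.07], with Gm14023 at 14, 12 and 10 counts on its opposite strand.

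Of the 6 IL-1 receptor chains compared in blastocysts 4 were called, beside 8.42% of all genes called in at least 1 comparison. Each of the 4 was lower with rLif in at least 1 comparison. Il1r1 and Il1rl2 were not called. Il1r1 ran the other way, with 29, 48 and 55 counts and a log2 ratio of 0.90 [0.22, 1.60] for rLif against control. Il1rl2 had 4, 4 and 3 counts. Il1rap, the accessory chain that IL-1, IL-33 and IL-36 receptors share, had 103, 35 and 16 counts and was lower than control in eKO and with rLif, at -1.59 [-2.19, -1.03] and -2.71 [-3.57, -1.95]. Il1r2, the decoy receptor, had 41, 16 and 5 counts and was lower with rLif than in control at -3.06 [-4.76, -1.73]. Stromal markers were low in the same libraries. Of 10 such genes 9 were compared, 3 were called lower in eKO and 4 with rLif than in control, and Col3a1 had 122, 60 and 28 counts, while the summed level, mostly Pdgfra, was 157, 159.7 and 152 CPM with 0, 2 and 0 genes at 0. Their part in the result was not tested. Il1rl1, the IL-33 receptor, had 4, 14 and 0 counts and Il18r1 0, 10 and 0. Both were called lower with rLif than in eKO, by at least 4.64-fold and at least 3.32-fold, and Il18r1 was called higher in eKO than in control, by at least 3.25-fold. Il18r1 passed the filter through the eKO library alone and Il1rl1 mostly so, and their calls end at a minimum of 50 counts.

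Il2rb had 157, 22 and 22 counts in blastocysts, 7.32-fold lower in eKO than in control at -2.87 [-3.59, -2.22] and at 0.01 [-0.91, 0.93] between rLif and eKO. Of the immune list, Cd3e, a T cell marker, had 26, 4 and 14 counts and Klrb1c 18, 5 and 0. The list as a whole went the other way between eKO and control, at a median log2 ratio of 0.62. Of its 15 genes compared there, 1 was called higher in eKO and 1 lower. Their part in the result was not tested. Il20rb had 18, 5 and 28 counts and was higher with rLif than in eKO at 2.49 [1.10, 4.22]. Il25, which encodes a ligand of Il17rb, had 10, 0 and 0 counts, so it passed the filter through the control library alone and its 2 lower calls were set by the filter. They end at a minimum of 50 counts, as does that of Il2ra. Il2ra had 0, 5 and 16 counts and exceeded control with rLif by at least 5.23-fold. It passed the filter through the library with rLif, so this difference was built in.

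**Figure D4:**
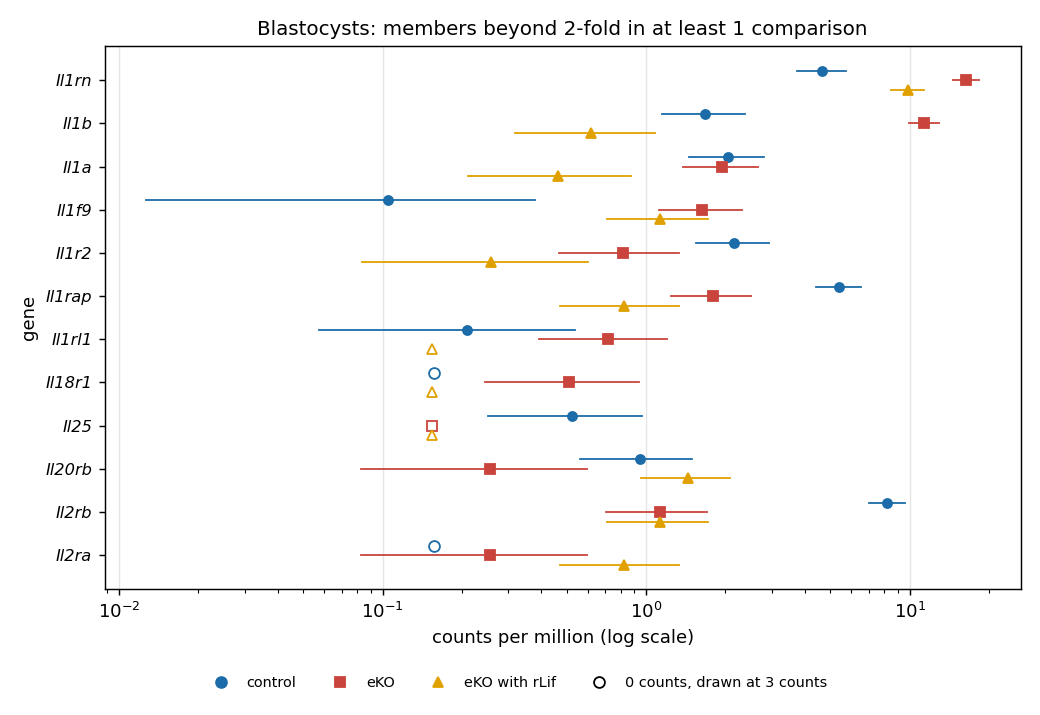
Level in CPM on a log axis of the 12 members called in at least 1 blastocyst comparison, each library a point with the exact 95% Poisson interval as a bar, and open symbols at the level of 3 counts for libraries with 0. Il1b stands highest in the blastocysts of eKO females, at 11.4 CPM against 1.68 in control and 0.617 with rLif.

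Apart from Il1b and Il1rn, the 10 highest blastocyst members were not called. Il6 had 466, 478 and 725 counts and Il17re 816, 795 and 848 counts. Il17ra, the chain that most IL-17 receptors share, had 542, 613 and 544 counts, and Il17rc had 303, 155 and 281. Il17d, the ligand read highest in this family, had 261, 296 and 234 counts. Il17a and Il17f had 0 counts in each blastocyst library, Il17b had 3, 2 and 1, and Il17c had 6, 9 and 10. Il34 had 74, 110 and 166 counts, at a log2 ratio of 1.14 [0.73, 1.55] for rLif against control, which was not called. Il33 had 120, 51 and 122 counts and Il17rb 138, 60 and 120, both lowest in eKO and not called.

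Between eKO and control blastocysts 3.15% of all genes were called. Among the signalling lists, 0 of 11 adaptors, 0 of 7 processing genes and 0 of 7 IL-17 pathway genes were called there. Of 4 Janus kinases 0 were called. In lists this short 0 calls are near the share of all genes. Between rLif and eKO Irak4, with 51, 63 and 18 counts, Nlrp3, with 8, 33 and 5, Casp1, with 8, 12 and 0, and Zc3h12a, with 46, 79 and 23, were lower. Casp1 passed the filter through the eKO library, so its difference was built in. Csf1, Csf1r and Csf2rb, which act in myeloid cells, were lower too, with Csf1 at 34, 72 and 14 counts and Csf2rb at 9, 39 and 3. Nfkbiz had 730, 331 and 140 counts and was lower with rLif than in control.

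Il1f8, Il1f6 and Il20ra, all lower in luminal eKO than in control, had 0 counts in each blastocyst library, so they could be compared in the luminal layer alone. Il1f9 between eKO and control, and Il1b between rLif and eKO, went in opposite directions in the 2 tissues, a difference that was not tested.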

How the data were processed

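Luminal layer and blastocyst RNA was made into libraries with the SMART-seq v4 kit and sequenced at BGI, 6 libraries in all. According to the submitters' processing notes and the study's methods, the authors aligned reads to GRCm38/mm10 with HISAT2 and counted them per gene with featureCounts of Subread 2.0.0. The deposited values are whole-number counts, not the RPKM the methods name, and annotation release, strand and multi-mapping settings are not given in the sources used here. Each group is 1 pooled library, so no replicate spread can be had, and the intervals cover counting error only (PCR reads without molecular identifiers are not independent molecules).

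TMM scaling within each tissue used edgeR 4.0.16 in R 4.3.3. Genes with at least 10 counts over a tissue's 3 libraries were tested (15694 luminal, 14873 blastocyst). Ratios have exact 95% Clopper-Pearson intervals (scipy 1.17.1), CPM exact Poisson ones, and a fold against 0 counts was computed at a floor of 3 counts per library. Positions, lengths and gene types came from the files and GENCODE M21, promoters from RefSeq GRCm38.p6. Alternatives were library totals, DESeq2 1.42.0 size factors, no filter, a minimum of 50 counts, a log2 limit of 0 and an edgeR exact test at an assumed dispersion of 0.1. Members, gene lists and the rule for named genes (every member called in any comparison, the 10 highest in each tissue, their partners and called genes of the lists) were chosen with earlier results of these data known.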

Additional observations from a re-analysis of the deposited data

Results flagged for a closer look

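Il1f9 and Il1b moved in opposite directions in the 2 tissues between the same groups. Il1f9 was lower, by at least 41.71-fold, in the luminal layer under the eKO label than under the control label, with 0 and 110 counts, but was higher in blastocysts of eKO females than in those of control females at a log2 ratio of 3.964, with 32 and 2 counts. The blastocyst call ends under the edgeR exact test at an assumed dispersion of 0.1. Il1b was higher with rLif than in eKO in the luminal layer at a log2 ratio of 2.19 and lower in blastocysts at -4.20. Immune markers in blastocysts were also lower with rLif than in eKO, at 32.7 and 141 CPM summed, the second sum mostly Lyz2. Of 15 compared, 5 were called lower and 0 higher, and their part in the result was not tested. With 1 library per group the difference between tissues was not tested for either gene.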

How the results depend on the processing

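With 1 pooled library per group, no library could be left out and no spread between animals estimated, and depth bounds only the counting error. No paired analysis was possible because each group has a single library. The counts of members called kept within 1.5 times the reported ones under library totals, DESeq2 size factors, no filter, and, chosen after seeing the data, without the Il8 and Il4i1 rows or without members whose exons overlap another row. Library totals moved the median log2 ratio of all genes to -0.116 and -0.166 in the luminal comparisons with rLif, and ended 1 of the called ratios, Il4ra against control at 1.07. In order, the luminal comparisons eKO against control, rLif against eKO and rLif against control had 15, 16 and 14 calls, and with a log2 limit of 0 had 36, 37 and 32. The edgeR exact test at an assumed dispersion of 0.1 called 9, 12 and 3. The blastocyst comparisons had 7, 4 and 7 calls, 19, 19 and 20 with a log2 limit of 0, and 2, 1 and 1 by the edgeR test. A minimum of 50 counts left 2 calls, not 4, for blastocysts with rLif against eKO. The edgeR calls were in the reported direction in each case, and no ratio reversed.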
